A study of Mus musculus with 13 samples.

Results

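Cytosolic ribosomal protein genes encode the protein part of the ribosome that translates nuclear-encoded mRNAs. They were taken from the RNA-seq count table by symbol (Rpl or Rps with a number and an optional a, x or y, Rplp0 to Rplp2, and Rpsa), which gave 76 of 24079 genes, 46 of the large subunit and 30 of the small subunit. CGR8 mouse embryonic stem (ES) cells, an established line, were grown on gelatin with LIF and serum and were kept for 48 h with 0.5% DMSO alone (control) or with PhenDC3 at 10 μM and the same 0.5% DMSO (PhenDC3). PhenDC3 is a small molecule that binds and stabilizes G-quadruplexes (G4), folded structures of G-rich DNA or RNA. Poly(A) RNA was sequenced in 3 replicates of each condition, and short nascent strands, the RNA-primed DNA made at replication origins, in 3 control and 2 PhenDC3 replicates (SNS-seq). The labels do not say that replicates came from separate cultures, so the p-values measure the spread between these libraries, which may be technical, and the cells are a single line.

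The small (40S) subunit reads the mRNA and the large (60S) subunit joins the amino acids. Each new ribosome needs the full set of these proteins, and their genes are among the most highly expressed in growing cells. Most of their mRNAs begin with a C followed by a run of pyrimidines at the 5′ end (the TOP motif), through which mTOR and the RNA-binding protein LARP1 control their translation. Free Rpl5 and Rpl11 can bind Mdm2 and so stabilize p53.

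The RNA-seq libraries held 22232014 to 29486502 counts. All 10 ES cell markers passed the filter on low counts, with 4 higher and 3 lower in PhenDC3 libraries. Pou5f1 was at 1403 to 1621 normalized counts in control and 1045 to 1131 in PhenDC3 libraries (CPM, per 1000000 counts of a library after scaling by relative log expression, RLE; log2 fold change -0.45, adjusted p = 0.0113 by edgeR), Utf1 (-2.02) and Tdgf1 (-0.67) were the others that fell, and Nanog (1.22), Klf4, Fgf4 and Dppa5a rose. Dcn and Lum, of 10 fibroblast markers, were at 0 in all 6 libraries, and the summed level of the 10 was 15.3 to 23.7 CPM in control and 25.9 to 28.7 CPM in PhenDC3 libraries. The summed level of 10 endoderm and trophoblast markers was 73.1 to 92.3 CPM in control and 152 to 191 CPM in PhenDC3 libraries, with 6 of 8 tested markers higher and none lower. The part of these markers in the results below was not tested. In bulk RNA, fewer cells of a type and less RNA per cell cannot be told apart. The share of counts on Rn45s, the 45S precursor of ribosomal RNA, was 5.70, 2.55 and 4.86% in the control libraries and 0.346, 0.172 and 1.43% in the PhenDC3 libraries. Lars2, a mitochondrial leucyl-tRNA synthetase, took 0.862, 0.750 and 0.996% against 0.114, 0.136 and 0.403%. Both shares were lower in every PhenDC3 library than in every control library. In libraries of poly(A) RNA these shares do not measure how much ribosomal RNA the cells made, and the cause of the differences was not tested.

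Ribosomal protein mRNAs were slightly lower after PhenDC3 as a group. Of the 75 genes that passed the filter, 22 were lower at an adjusted p of at most 0.05 and 0 were higher, by edgeR's quasi-likelihood test with Benjamini-Hochberg adjustment over all 13972 genes tested. This was 29.3% of the ribosomal protein genes, beside 18.7% of all genes tested called lower and 18.0% called higher, and 24.2% lower among 2087 other genes of at least 100 CPM. The log2 fold change was below 0 for 74 of 75 genes, with a median of -0.25 (0.840 of control), a lowest value of -0.77 for Rpl36 and a highest of 0.01 for Rps18. The median over all genes tested was 0.01. The 3 PhenDC3 libraries lay below all 3 control libraries for 27 genes (36.0%) and above them for none. The share below was 25.6% of all genes tested and 33.9% of those other genes of at least 100 CPM. It was 43.1% of 835 other genes with transcripts of up to 1000 bases and at least 1 CPM.

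The number of calls rested on few libraries. It fell to 2 without PhenDC3 replicate 1 (2.67%, beside 11.4% of all genes called lower in that fit), to 3 without PhenDC3 replicate 3 (4% beside 13.2%), to 8 without control replicate 2 (10.7% beside 16.0%) and to 13 without control replicate 1 (17.3% beside 14.9%). In the first 3 of these fits the share was below that of all genes. The 22 genes were below 0 in all 4, but they were chosen as lower in these same libraries, so their sign adds no support. The count rose to 25 without control replicate 3 (33.3% beside 19.1%) and to 26 without PhenDC3 replicate 2 (34.7% beside 14.4%). With the replicate number as a block it was 49 (65.3% beside 26.4%). The column headers of the counts number each PhenDC3 library directly after the control of its replicate number. They do not say that such libraries were handled together, so whether the numbers mark pairs was not settled. The count was 2 (2.67% beside 12.1%) when libraries were scaled by total counts alone, which moved the median of all genes to 0.16 and that of the ribosomal protein genes to -0.10, and the split of all calls to 3583 higher and 1688 lower from 2518 and 2617. The difference between those medians was -0.26 under both scalings. It could hardly change, since a scaling shifts all genes of a library alike. Upper quartile scaling gave 11 calls (14.7% beside 17.2%), and totals without Rn45s and Lars2 gave 5 (6.67% beside 14.8%) with a median of -0.17. Removing a trend with GC content and transcript length left 7 (9.33% beside 20.6%), with a median of -0.05 and 47 of 75 genes below 0. The difference from the median of all genes was then -0.04.

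**Figure D1:**
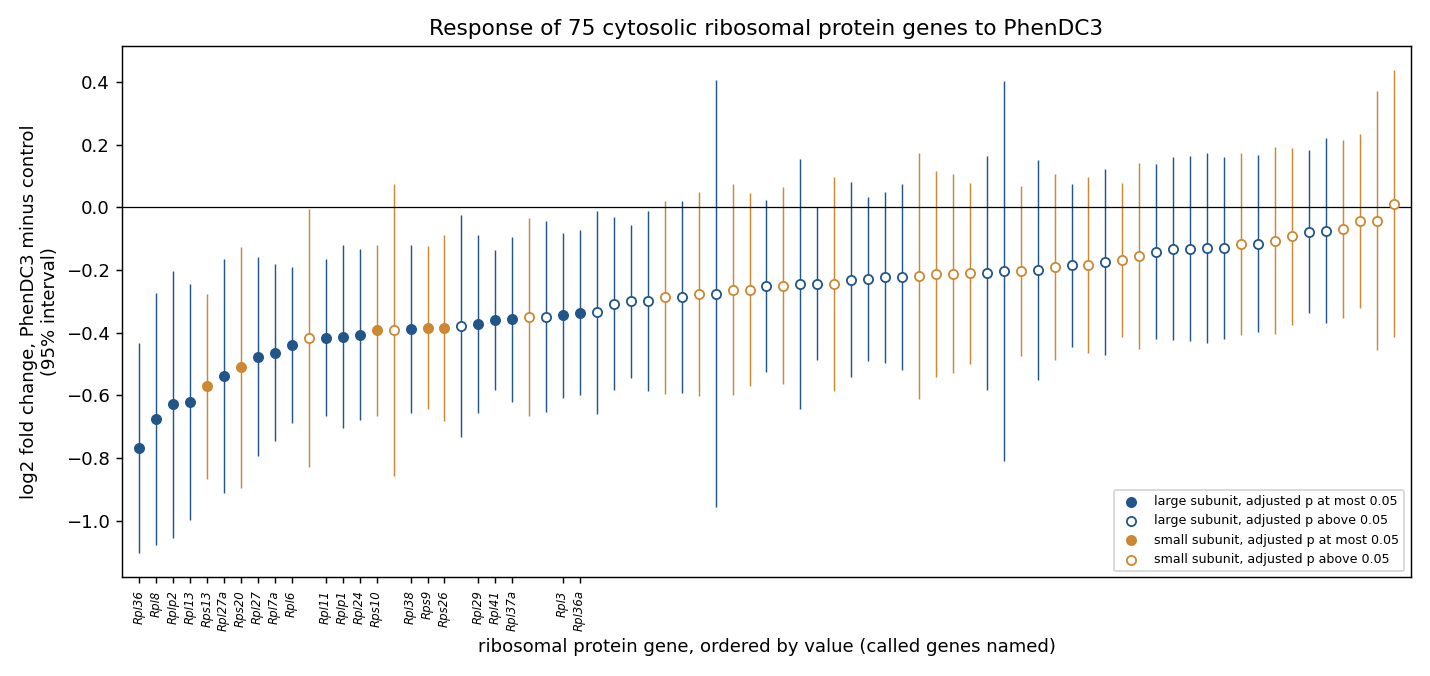
Log2 fold change (PhenDC3 minus control, y axis) of the 75 ribosomal protein genes tested (x axis, ordered by value, the called genes named), with 95% intervals from the edgeR fit, 3 libraries a condition. Filled points have an adjusted p of at most 0.05: these are 17 large subunit genes (blue) and 5 small subunit genes (orange), all below 0.

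Ribosomal protein genes have short transcripts, and short transcripts outside the group were also lower after PhenDC3. Median transcript length was 726 bases for the ribosomal protein genes and 2956.5 bases for all genes tested with at least 1 CPM. Among 835 other genes with transcripts of up to 1000 bases and at least 1 CPM, 35.2% were called lower and 6.95% higher, with a median log2 fold change of -0.30. By length class, the medians of other genes were -0.29 up to 500 bases, -0.31 from there to 1000, -0.21 to 2000, -0.01 to 4000 and 0.21 above, while those of ribosomal protein genes in the first 3 classes were -0.35 (n = 17), -0.24 (n = 37) and -0.22 (n = 17). Of the ribosomal protein genes at or above their median of 51.2% GC, 15 of 38 were called lower, and of those below it 7 of 37. The part of length and GC content in the fall was not tested beyond the fit without their trend.

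**Figure D2:**
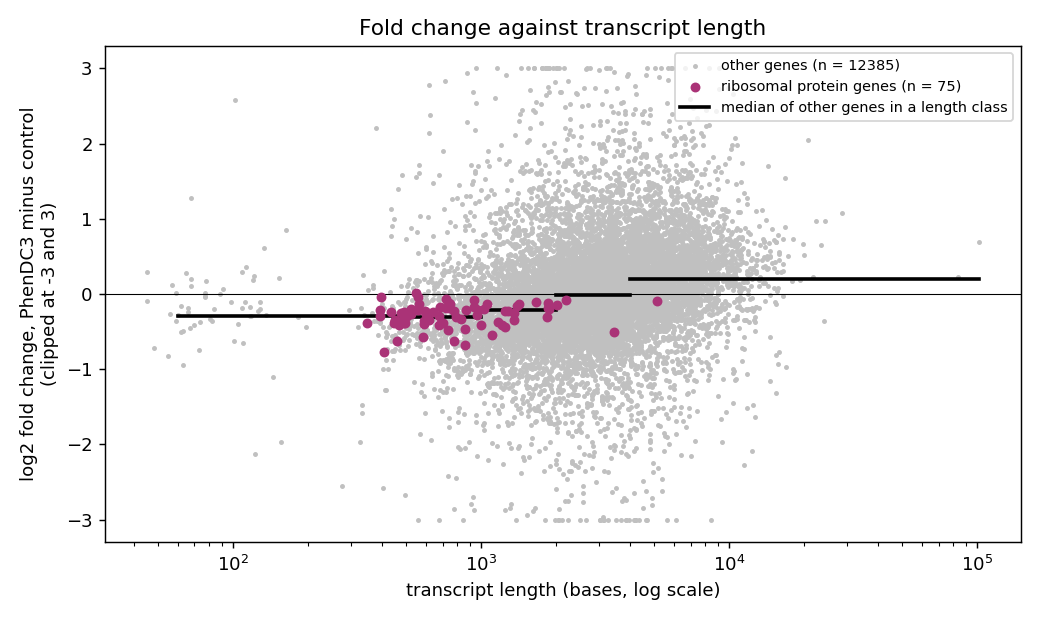
Log2 fold change (PhenDC3 minus control, clipped at -3 and 3) against transcript length (bases, log scale) for genes with a mean of at least 1 CPM. The ribosomal protein genes (purple, n = 75) lie around the black lines, the medians of other genes in classes of length, which run from -0.29 in the shortest class to 0.21 in the longest.

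Of the large subunit genes 17 of 45 were called lower (37.8%), with a median log2 fold change of -0.30. Of the small subunit genes it was 5 of 30 (16.7%), with a median of -0.22, beside 18.7% of all genes tested. The ratio of summed large to small subunit counts, which does not depend on how a library is scaled, was 1.47, 1.48 and 1.53 in the control libraries and 1.43, 1.39 and 1.43 in the PhenDC3 libraries. Every PhenDC3 library was below every control library, and the difference was -0.0721 (1.49 ± 0.0351 against 1.42 ± 0.0210, SD, n = 3). The exact two-sided permutation test gave p = 0.1, the smallest that 3 against 3 libraries allow. The share of all counts that fell on the 76 genes was 10.5, 12.1 and 9.55% in control and 9.69, 11.4 and 8.73% in PhenDC3 libraries. These shares overlapped between conditions (difference -0.788 percentage points, unpaired exact permutation p = 0.6). Between same-numbered libraries they differed by -0.795, -0.752 and -0.818 percentage points, which the unpaired test does not use. With Rn45s and Lars2 left out of the totals the difference was -1.29 percentage points (exact permutation p = 0.3).

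**Figure D3:**
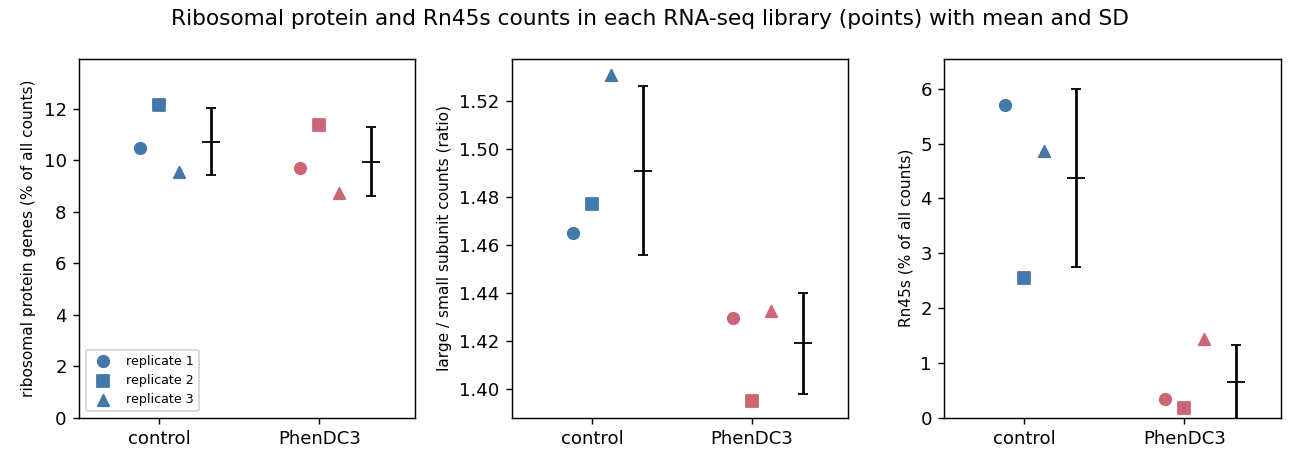
Percent of counts on the 76 ribosomal protein genes (left), ratio of large to small subunit counts (middle, axis not from 0) and percent of counts on Rn45s (right) in each RNA-seq library, with mean and SD of 3 libraries a condition. The percent on ribosomal protein genes overlaps between conditions but is lower in PhenDC3 at each replicate number. The ratio and the percent on Rn45s do not overlap.

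The largest fall was that of Rpl36, a small protein of the 60S subunit. Its levels were 716, 1051 and 912 CPM in the control libraries and 494, 561 and 517 CPM in the PhenDC3 libraries. All PhenDC3 values lay below all control values, and the log2 fold change was -0.77 ± 0.15 (SE, adjusted p = 0.00415). Rpl36 was called in all 20 fits tried, and so was Rps13 of the 40S subunit. Rps13 was at 806, 1071 and 887 CPM in control and 614, 664 and 583 CPM in PhenDC3 libraries (log2 fold change -0.57 ± 0.13, adjusted p = 0.00915). It was the only small subunit gene among the 12 largest called falls without overlap.

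Rpl8, which lies close to the peptidyl transferase centre, was at 1471, 2236 and 1564 CPM in control and 1089, 1263 and 950.03 CPM in PhenDC3 libraries (log2 fold change -0.68 ± 0.18, adjusted p = 0.0168). Rpl13 fell from 751, 1167 and 887 CPM to 585, 679 and 560.4 CPM (log2 fold change -0.62 ± 0.17, adjusted p = 0.0183). In both genes control replicate 2 stood highest, and the PhenDC3 libraries were closer to each other than the control libraries. Rpl27a was at 1008, 1506 and 1043 CPM in control and 789, 897 and 762 CPM in PhenDC3 libraries (log2 fold change -0.54 ± 0.17, adjusted p = 0.0310). Here too control replicate 2 stood apart from the other control libraries.

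Rpl27, Rpl7a, Rpl6 and Rpl24, also of the large subunit, fell too, with control libraries closer to each other. Rpl27 was at 1002, 1164 and 919 CPM against 708, 857 and 653 CPM (log2 fold change -0.48 ± 0.14). Rpl7a was at 2379, 2321 and 2067 CPM against 1680.3, 1814 and 1415 CPM (log2 fold change -0.46 ± 0.12). Neither gene overlapped between conditions, with adjusted p of 0.0264 for Rpl27 and 0.0185 for Rpl7a. Rpl6 was at 2117, 2162 and 2018 CPM against 1604, 1653 and 1384 CPM (log2 fold change -0.44 ± 0.11, adjusted p = 0.0135). Rpl24 was at 1076, 1176 and 986 CPM against 783, 909 and 751 CPM (log2 fold change -0.41 ± 0.12, adjusted p = 0.0277). The highest PhenDC3 value of each of these genes was below its lowest control value.

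The acidic P-stalk recruits elongation factors to the ribosome and is built from Rplp0, Rplp1 and Rplp2. Rplp2 was at 574, 1004 and 894 CPM in control and 512, 562 and 524 CPM in PhenDC3 libraries (log2 fold change -0.63 ± 0.19, adjusted p = 0.0283). Rplp1 was at 2177, 2807 and 2501 CPM in control and 1826, 2074 and 1723 CPM in PhenDC3 libraries (log2 fold change -0.41 ± 0.13, adjusted p = 0.0339). For Rplp2 the lowest control library was close to the highest PhenDC3 library, although neither gene overlapped. Rplp0, the base of the stalk, was at 3704, 3950.2 and 3162 CPM in control and 3148, 3179 and 2763 CPM in PhenDC3 libraries. Its conditions overlapped, and its value of -0.25 ± 0.12 did not pass the test (adjusted p = 0.136).

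Of Rpl5 and Rpl11, which can bind Mdm2, Rpl11 fell and Rpl5 did not pass the test. Rpl11 was at 1275, 1365 and 1248 CPM in control and 971, 1059 and 885 CPM in PhenDC3 libraries, with no overlap (log2 fold change -0.42 ± 0.11, adjusted p = 0.0175). Rpl5 was at 2166, 2168 and 1948 CPM against 1908, 2140 and 1647 CPM, which overlapped (log2 fold change -0.14 ± 0.12, adjusted p = 0.397). The difference between the genes was not tested.

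The small subunit genes Rps20 (log2 fold change -0.51), Rps10 (-0.39), Rps9 (-0.38) and Rps26 (-0.38) were also called lower, Rps20 with overlapping conditions and an annotated transcript of 3446 bases, long for this group. The other called large subunit genes were Rpl38, Rpl29, Rpl41, Rpl37a, Rpl3 and Rpl36a, between -0.39 and -0.34 on the log2 scale. Rps6, the ribosomal protein phosphorylated by S6 kinase, was at 2062, 1976 and 1616 CPM in control and 1630, 1895 and 1554 CPM in PhenDC3 libraries (log2 fold change -0.15 ± 0.13, adjusted p = 0.385). Rpsa, which is also known as a laminin receptor, was at 2986, 3226 and 2774 CPM against 2711, 2920 and 2279 CPM (log2 fold change -0.18 ± 0.12, adjusted p = 0.275). Both overlapped between conditions.

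Rps18 and Rps23, of the 40S subunit, were among the genes with values nearest 0. Rps18 was at 2443, 2304 and 1477 CPM in control and 2029, 2383 and 1862 CPM in PhenDC3 libraries (log2 fold change 0.01, 95% interval -0.42 to 0.44). Rps23 was at 664, 770 and 547 CPM against 608, 800.4 and 515 CPM (log2 fold change -0.04, 95% interval -0.45 to 0.37). In both the lowest control library was replicate 3, and the intervals still hold the group's median of -0.25. Rps18 was below 0 with TMM scaling and Rps23 above 0 with total counts.

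**Figure D4:**
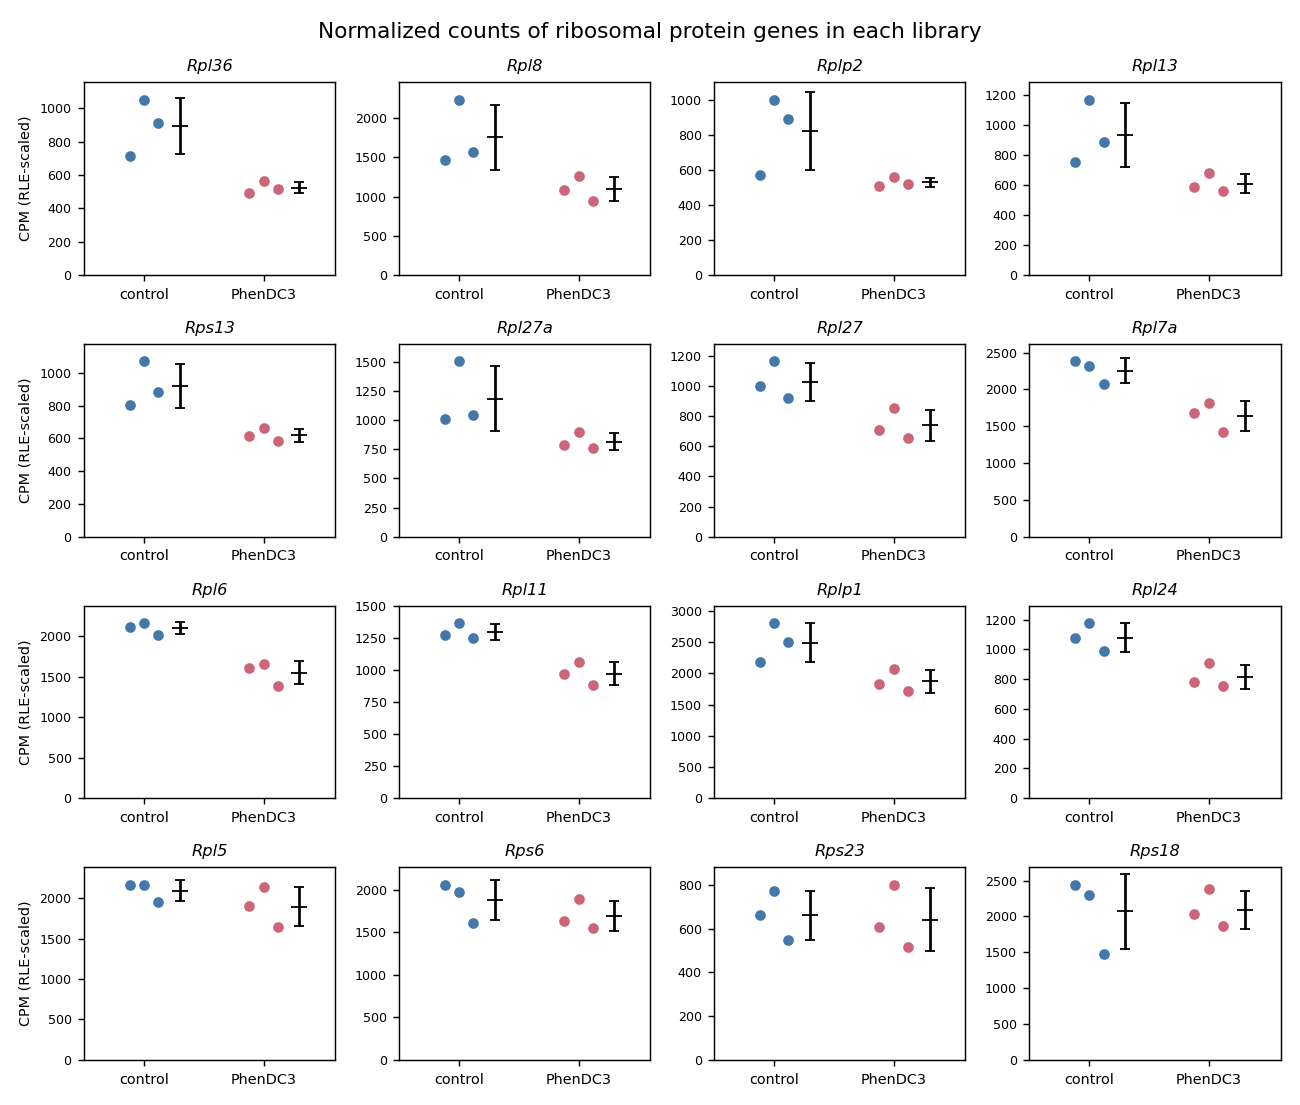
Level in CPM (y axis, from 0) of 16 ribosomal protein genes in each control (blue) and PhenDC3 (red) RNA-seq library, with mean and SD of 3 libraries. The first 12 panels are the largest called falls without overlap, from Rpl36 to Rpl24, and the last 4 (Rpl5, Rps6, Rps23 and Rps18) overlap between conditions.

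Levels varied among the genes far more than with treatment. Per transcript length, as CPM per 1000 bases (RPKM), the highest means in control cells were those of Rplp1 (5331 ± 673, SD, n = 3), Rpl41 (4276 ± 66.1), Rps29 (4186 ± 415), Rps12 (3940.1 ± 719) and Rps18 (3779 ± 952). Rpl41, which encodes a very short basic peptide, was the only one besides Rplp1 that was called lower, from 1888, 1924 and 1947 CPM to 1434, 1573 and 1484 CPM (log2 fold change -0.36 ± 0.10, adjusted p = 0.0200). Neighbours in this order from Rpl41 downwards lay within 1 SD of each other. Rps29, a zinc-binding protein of the 40S head, was at 1468, 1638 and 1791 CPM against 1283, 1559 and 1170.4 CPM (log2 fold change -0.29 ± 0.14, adjusted p = 0.130). Rps12 was at 1867, 2468 and 1788 CPM against 1610.1, 1962 and 1600.4 CPM (log2 fold change -0.24 ± 0.15, adjusted p = 0.234). Over the 72 genes with at least 100 CPM in control, the median level per length was 2032 RPKM in control and 1621 RPKM in PhenDC3 cells. Rps15a was among the lowest per length, with an annotated transcript of 5136 bases.

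A few genes had almost no counts. Rpl26 was listed at 0 in all 6 libraries, where 3 counts would stand for 0.102 to 0.135 CPM. Rpl30 was at 1.52, 1.46 and 2.12 CPM in control and 1.25, 1.51 and 1.67 CPM in PhenDC3 libraries. Rpl34 was at 2.82, 3.92 and 3.16 CPM against 2.22, 1.92 and 3.99 CPM, and Rps27 at 2.86, 3.37 and 2.98 CPM against 2.22, 2.59 and 2.21 CPM. None of the 3 passed the test (adjusted p = 0.583, 0.505 and 0.167), and they had the widest intervals of the group. Over all 6 libraries the least abundant genes after them were Rpl37, with 568, 641 and 473 CPM against 469, 584 and 401 CPM (adjusted p = 0.346), and Rps26, with 625, 780.1 and 646 CPM against 487, 591 and 493 CPM (log2 fold change -0.38 ± 0.13, adjusted p = 0.0470). Many ribosomal protein genes have processed copies, and reads that fit several places are often not counted. In the GRCm38.p6 genome 50 of the 76 transcripts matched at least 1 other place over at least 80% of their length with at least 90% identity, and 35 with at least 99% identity. Counts of these genes are therefore uncertain. At this identity of 99% Rpl26 and Rpl34 had 1 copy each and Rpl30 and Rps27 had 2 each. Rpl35a had 7 and stood at 1048, 1079 and 927 CPM in the control libraries. The part of copies in the near absence of counts was not tested. Of the 41 tested genes without a copy of at least 99% identity, 11 were lower (26.8%) with a median of -0.22. Of the 34 with such a copy, 11 were lower (32.4%) with a median of -0.32, beside 18.7% of all genes tested.

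Ribosomal proteins and relatives whose symbols fall outside the pattern gave 4 of 12 lower (33.3%, beside 18.7% of all genes tested) and 0 higher. Their median was -0.29. Without PhenDC3 replicate 3, 2 of 12 were lower, beside 13.2% of all genes in that fit. Fau, the precursor of eS30, was at -0.34 (adjusted p = 0.0681), Gnb2l1, the older symbol of Rack1, at -0.23 and Rps3a1 at -0.17 on the log2 scale, and none of these parts of the standard ribosome passed the test. The 4 that fell were paralogs, namely Rps4l (-0.78 ± 0.17, adjusted p = 0.00815), Rpl39l (-0.67 ± 0.18), Rpl22l1 (-0.60 ± 0.10) and Rpl36al (-0.43 ± 0.11). Rpl22l1 was at 165, 168 and 182 CPM in control and 109, 120 and 111 CPM in PhenDC3 libraries. Its paralog Rpl22 had a log2 fold change of -0.08 (adjusted p = 0.628), and the difference between the pair was not tested. Rpl7l1 (-0.19), Rpl3l (-0.58, near 1 CPM), Rpl10l (0.14) and Rps27l (0.03), a target of p53, did not pass the test, although Rps27l did with the GC and length trend removed (0.28, adjusted p = 0.0302, with adjusted p from 0.00684 to 0.939 over its alternatives).

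Mitochondrial ribosomal proteins, which build the separate ribosome of mitochondria, were lower in 50 of 77 genes (64.9%, beside 18.7% of all genes tested) and higher in 0. Their median was -0.44 and their median transcript length 1055 bases. Mrpl52 (-1.27 ± 0.21), Mrpl34 (-1.27 ± 0.16), Mrpl57 (-1.13 ± 0.22), Mrps12 (-1.08 ± 0.17) and Mrpl36 (-1.06 ± 0.18) fell most. In the fit without the trend with length and GC content 36 of the 77 were lower, beside 20.6% of all genes, with a median of -0.29. Without PhenDC3 replicate 1 or 3, 28 or 29 were lower, beside 11.4 or 13.2% of all genes.

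Among chaperones and assembly factors of ribosomal proteins, 9 of 18 were lower (50.0%, beside 18.7% of all genes tested) and 2 higher (11.1% beside 18.0%). Leaving out 1 library gave 3 to 8 lower. There were 3 without PhenDC3 replicate 1 or 3, beside 11.4 or 13.2% of all genes in those fits. Without control replicate 1 there were 4 (beside 14.9%), and without PhenDC3 replicate 2 there were 5 (beside 14.4%). Removing the GC and length trend gave 5, beside 20.6% of all genes. Of the called genes, Rpf2 (-0.54 ± 0.10) and Rrs1 (-0.50 ± 0.12), which bring the 5S particle of Rpl5 and Rpl11 into the ribosome, and Grwd1 (-0.52 ± 0.10), Heatr3 (-0.47 ± 0.14) and Pdcd2l (-0.46 ± 0.16) fell most. The ribosome recycling factor Abce1 rose (0.30 ± 0.10), as did Nacad at under 1 CPM (1.82 ± 0.53). This list had 1 higher gene without control replicate 2 and 0 without any other single library. With the GC and length trend removed it had 1. Translation elongation genes were lower in 5 of 9 (55.6%, beside 18.7% of all genes tested) and higher in 1 (11.1% beside 18.0%). Eif5a, the hypusine-bearing elongation factor, fell from 1429, 1649 and 1535 CPM to 901, 712 and 800.1 CPM (-0.93 ± 0.12, adjusted p = 0.000686), and its paralog Eif5a2 rose from 23.7, 17.0 and 23.4 CPM to 40.9, 31.2 and 46.2 CPM (0.88 ± 0.18, adjusted p = 0.00568). Eef2k (-0.90 ± 0.14), a kinase that inhibits elongation, the eEF1 subunits Eef1d (-0.55 ± 0.11) and Eef1g (-0.33 ± 0.10), and Eef1e1 (-0.49 ± 0.10), a part of the aminoacyl-tRNA synthetase complex, also fell.

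Initiation factors were lower in 11 of 38 genes (28.9%, beside 18.7% of all genes tested) and higher in 1 (2.63% beside 18.0%). Without PhenDC3 replicate 1, 5 of 38 were lower, beside 11.4% of all genes in that fit. The scanning factor Eif1ax fell most, from 130.2, 160 and 129 CPM to 59.5, 53.4 and 55.4 CPM (-1.31 ± 0.12, adjusted p = 0.000141), followed by Eif6 (-0.75 ± 0.12), which keeps the 60S subunit from joining too early. Subunits of the eIF3 scaffold followed, with Eif3b at -0.61 ± 0.12, Eif3l at -0.54 ± 0.15 and Eif3d at -0.48 ± 0.10. Eif2s2, the beta subunit of eIF2, rose (0.77 ± 0.11). Under scaling by total counts 5 of 38 initiation factors were lower and 5 higher. Over all genes in that fit 12.1% were lower and 3583 of 13972 were higher.

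Regulators of ribosomal protein synthesis were mostly not called, with 4 of 24 lower (16.7%, beside 18.7% of all genes tested) and 2 higher (8.33% beside 18.0%). Myc, which drives transcription of ribosome genes, was at 48.2, 46.6 and 55.6 CPM in control and 11.2, 6.61 and 13.3 CPM in PhenDC3 libraries (log2 fold change -2.27 ± 0.23, adjusted p = 0.000189). Larp1b (-1.15 ± 0.16), Mycn (-0.90 ± 0.18) and the TOP mRNA binding protein Cnbp (-0.63 ± 0.13) fell as well. Tsc1, an inhibitor of mTOR signalling, rose (0.58 ± 0.11), as did the Myc antagonist Mxd1 (0.53 ± 0.14). Larp1 itself was at -0.40 ± 0.17 (adjusted p = 0.0954), Mtor at -0.13 (adjusted p = 0.589) and Rps6kb1, an S6 kinase, at -0.23 (adjusted p = 0.132).

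In the list around Mdm2 and p53, 5 of 10 genes were higher (50.0%, beside 18.0% of all genes tested) and 1 lower (10.0% beside 18.7%). The p53 targets Mdm2 (1.24 ± 0.11), Cdkn1a (1.24 ± 0.12), Ccng1 (1.12 ± 0.12) and Phlda3 (1.16 ± 0.22) and the Mdm2 relative Mdm4 (1.37 ± 0.23) rose, and the mRNA of p53 itself, Trp53, fell (-0.49 ± 0.12). Rpl5 and Rpl11, given above, are ribosomal proteins of this list's pathway. A link between their levels and those of the p53 targets was not tested. Of 20 host genes of small nucleolar RNAs, many of which also carry a TOP motif, 1 was lower and 1 higher (5.00% each). Over all genes tested these shares were 18.7% and 18.0%. Snhg3 fell (-0.76 ± 0.16) and Snhg11 rose (0.93 ± 0.25).

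Promoter windows of 300 bases, from 250 before to 50 after the annotated start (RefSeq, GRCm38.p6), were matched for 56 of the 76 genes. A run of at least 6 pyrimidines that begins with C within 15 bases of the annotated start was in 33 (58.9%), against 26.6% of 11044 windows of genes tested and 26.2% of all 27025 windows. It was in 11 of 16 windows of genes called lower and 22 of 39 of those not called. The windows around the start are shown for the 4 largest falls and the 4 smallest changes among the matched genes, to let the 5′ ends be compared. Each runs from 15 bases before the annotated start to 15 bases from it on, in the direction of transcription, and capitals mark the pyrimidine run as far as it lies in the window.
Rplp2, chr7:141447636-141447665, plus strand: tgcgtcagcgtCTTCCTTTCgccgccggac
Rpl13, chr8:123102335-123102364, plus strand: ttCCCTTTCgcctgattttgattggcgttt
Rps13, chr7:116334176-116334205, minus strand: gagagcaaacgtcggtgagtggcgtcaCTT
Rpl27a, chr7:109519180-109519209, plus strand: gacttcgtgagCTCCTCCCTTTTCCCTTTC
Rps18, chr17:33955651-33955680, minus strand: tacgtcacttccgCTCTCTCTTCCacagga
Rps23, chr13:90923107-90923136, plus strand: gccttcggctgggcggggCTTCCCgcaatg
Rps28, chr17:33824548-33824577, minus strand: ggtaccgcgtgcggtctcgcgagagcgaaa
Rpl14, chr9:120571502-120571531, plus strand: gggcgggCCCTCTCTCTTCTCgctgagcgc
All 4 genes that fell most and 3 of the 4 that changed least held a run, with Rps28 as the exception. In several windows the run does not begin at the annotated start itself, and the start used in these cells was not measured.

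Few of these windows held a strong candidate for a G4. A G4Hunter score of at least 2 in absolute value (25-base windows, both strands) was reached in 5 of 56 windows (8.93%), against 27.6% of the windows of genes tested and 18.7% of all windows. The median GC content was 57.0% against 61.3% for the genes tested. At a score of 1.5 it was 24 of 56 (42.9%), against 59.5% and 41.5%. Of the 5 genes, 3 were called lower, Rpl27 and Rps10 among them, and Rps16 (-0.35, adjusted p = 0.0786) and Rpsa were not called. The hits of Rpl27 and Rps10 are printed in the direction of transcription, with runs of at least 3 G or C in capitals.
Rps10, chr17:27635382-27635418, minus strand: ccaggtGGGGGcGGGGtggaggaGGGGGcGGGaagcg
Rpl27, chr11:101442052-101442083, plus strand: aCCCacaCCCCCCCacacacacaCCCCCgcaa
The G-rich strand is the sense strand in Rps10 and the template strand in Rpl27. A hit at 2 was in 3 of the 16 windows of genes called lower and in 2 of the 39 of genes not called, and this difference was not tested.

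Among motifs searched on both strands, the ETS core CCGGAAG was in 37.5% of the 56 windows (17.9% of windows of genes tested, 9.24% of all) and the YY1 core CCATNTT in 30.4% (14.7% and 16.3%). The GC box GGGCGG, in 60.7% (66.2% and 36.6%), overlaps in sequence with G4 hits. TATAAA was in 8.93% (6.93% and 14.1%) and the palindromic NRF1 core in 1.79% (2.12% and 1.01%). A match is a description of the letters and no measure of binding.

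Replication origins lay near the start sites of most ribosomal protein genes. An SNS-seq peak within 2 kb of a curated RefSeq start was found for 67, 52 and 38 of the 76 genes in the control replicates (88.2, 68.4 and 50.0%) and for 58 and 26 in the PhenDC3 replicates (76.3 and 34.2%). For all genes tested the shares were 67.2, 64.6, 39.2, 64.3 and 46.0%, and for genes of at least 100 CPM 77.0, 73.4, 43.0, 69.2 and 48.1%. The ribosomal protein genes were above all genes tested in 4 lists and below them in PhenDC3 replicate 2. The lists differ in length, from 79384 to 144116 peaks, and hold no read counts, so the depth is unknown, and no test of the 3 against 2 lists was made.

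**Figure D5:**
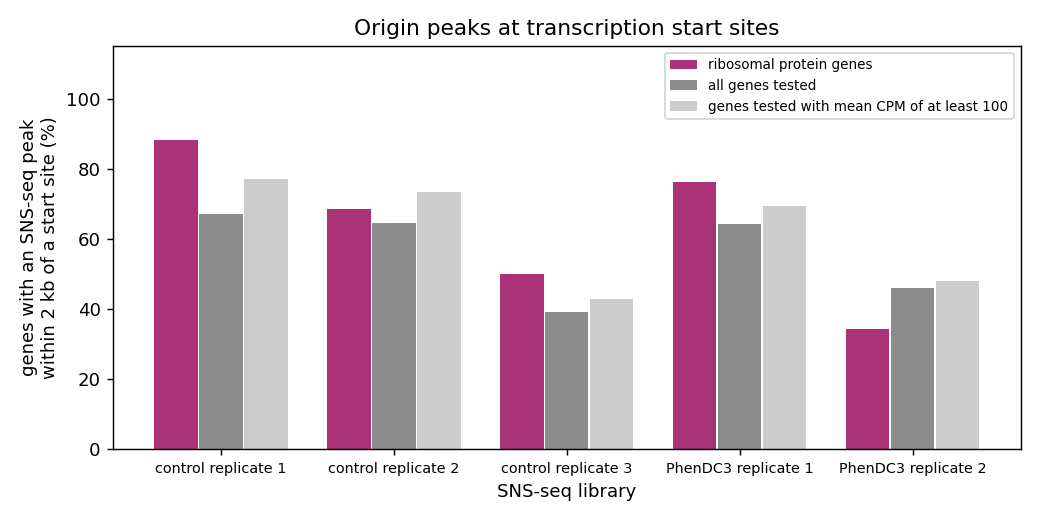
Percent of genes with an SNS-seq peak within 2 kb of a start site (y axis, from 0) in each of the 5 SNS-seq libraries (x axis), for the 76 ribosomal protein genes (purple), all genes tested (dark grey) and genes of at least 100 CPM (light grey). The ribosomal protein genes are highest in control replicate 1 (88.2%) and lowest in PhenDC3 replicate 2 (34.2%).

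A peak in at least 2 controls or in both PhenDC3 lists was present for 56 genes (73.7%, against 67.2% of all genes tested and 75.4% of those of at least 100 CPM), and in all 5 lists for 21 (27.6%, against 25.9%). No peak in any list was seen for 7 genes (9.21%, against 17.7% of all genes tested and 11.3% of those of at least 100 CPM). Peaks in at least 2 controls and in neither PhenDC3 list were seen for 7 genes (9.21%, against 8.27% of all genes tested and 9.51% of those of at least 100 CPM). Rpl5, Rpl17, Rps6, Rps15a and Rps24 were among them. None of the 7 was called in RNA-seq, beside 22 of all 75 tested, and this difference was not tested. The reverse, peaks in both PhenDC3 lists and in no control, was seen for 0 (against 2.03% and 1.48%). Of the 22 genes called lower, 17 had such an origin and 10 had a peak in all 5 lists, and of the 53 tested and not called 39 and 11.

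Fold enrichment over the RNase-treated library had medians of 6.91, 4.97 and 6.37 in the control and 6.19 and 4.40 in the PhenDC3 lists over the genes with a peak. Of the 21 genes with a peak in all 5 lists, 5 (Rpl6, Rpl8, Rpl13a and Rpsa among them) had both PhenDC3 values below all 3 control values and 0 had them above. Among all 3613 genes tested with a peak in all lists these shares were 22.8% and 8.03%. The origin at Rpl6 had enrichments of 21.0, 16.0 and 13.5 in control and 4.05 and 4.21 in PhenDC3 lists. That at Rpl8 had 17.8, 10.4 and 17.1 against 9.55 and 5.53. Each PhenDC3 value was lower than each control value at both genes. The origins of Rps2 (24.2, 17.1 and 18.4 against 20.3 and 7.92) and Rps29 (30.9, 8.36 and 13.3 against 17.0 and 11.2) were among the strongest and overlapped between conditions. Each condition has its own RNase-treated library, so the condition and that library cannot be told apart.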

How the data were processed

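Per the authors' methods and processing notes, RNA-seq reads of stranded poly(A) libraries were mapped with TopHat2 2.1.1 and Bowtie2 2.2.9 and counted on genes with HTSeq 0.6.1p1 (build mm10). The annotation and strand setting of the counting are not given in the sources used here. The authors deposited raw counts, which were used as they are. SNS-seq peaks were called by the authors in each replicate with MACS2 2.1.0 against the RNase-treated library of the condition and kept where SICER found a region. The deposited lists give each peak's fold enrichment (a ratio) and −log10 of its p-value. A deposited DESeq2 table of fold changes and p-values and a table of normalized pseudo-counts were not used.

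Counts were tested with edgeR 4.0.16 in R 4.3.3 (RLE factors, filterByExpr, robust quasi-likelihood fit, adjusted p of at most 0.05 over all genes). Alternatives were TMM, upper quartile and total count scaling, 2 other filters on low counts, DESeq2 1.42.0, limma 3.58.1 (voom), a replicate block, factors without these genes, each library left out and, added after seeing the data, totals without Rn45s and Lars2, removal of a GC and length trend, and leaving out genes with near-identical copies. The script was tested on simulated data. RPKM used 1 curated RefSeq transcript a gene (the Select transcript where tagged, otherwise the longest). Copies were found with BLAST 2.17.0. Library values were compared with exact permutation tests.

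The genes named with values per library are the 12 largest called falls without overlap, the 5 least abundant tested, the 5 highest per length, any gene not tested, and Rplp0, Rplp1, Rplp2, Rpsa, Rps6, Rpl5 and Rpl11. From each related list up to 5 called genes in each direction are named, and the paralogs. A few single genes and 1 sequence are not reported here. Further genes were named after their values were seen: the other called ribosomal protein genes, Rps20, Rps10 and Rps9 among them, Rps23, Rpl22, Larp1, Mtor, Rps6kb1 and the genes named for their origins or promoter sequence. The genes and lists were chosen with earlier results of these data known.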

Additional observations from a re-analysis of the deposited data

How the results depend on the processing

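The 22 calls became 23 with TMM and with DESeq2, 22 with limma-voom and with factors computed without these genes, and 20 with either other filter. They became 11 with upper quartile scaling, 2 with total counts (median log2 fold change -0.10), 5 with totals without Rn45s and Lars2 (median -0.17), 7 with the GC and length trend removed (median -0.0502), 11 of 41 without genes that have near-identical copies, and 2 to 26 with 1 library left out (median -0.36 to -0.19). The cause of these shifts was not tested. The replicate numbers were not taken as pairs in the main fit. Over 13972 genes the deviations of same-numbered libraries correlated with r of 0.0945, 0.663 and 0.520. PhenDC3 replicate 1 was only narrowly closer to control replicate 3 than to control replicate 1. Between numbers 2 and 3, libraries of unlike number correlated with r of -0.582 and -0.554. Over the ribosomal protein genes alone the same-numbered values were 0.367, 0.145 and 0.403. There PhenDC3 replicate 2 was narrowly closest to control replicate 1, and PhenDC3 replicates 1 and 3 were closest to the control of their own number. The share of counts differed by -0.795, -0.752 and -0.818 percentage points between same-numbered libraries. These values and the column headers do not settle whether the numbers mark pairs, and the count of calls depends on it. With a replicate block 49 genes were lower (65.3%, beside 26.4% of all genes), 13 lower and 2 higher (17.3% lower, beside 27.5%) when the GC and length trend was also removed (median -0.0535), and 32 lower with totals without Rn45s and Lars2 (median -0.17). The related lists' 97 calls became 58 to 109 with 1 library left out and 64 with total counts. With total counts 24 of 77 mitochondrial ribosomal proteins and 3 of 18 chaperones were lower, beside 12.1% of all genes. With 1 library left out, the subunit ratio differed by -0.0852 to -0.0522, the share of counts by -1.51 to -0.0839 percentage points, and 39 to 54 genes kept an origin; the G4Hunter threshold of 1.5 gave 24 windows.

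Of the 75 genes, 60 were below 0 with total counts, 69 with totals without Rn45s and Lars2, 47 with the trend removed and 70 without PhenDC3 replicate 3. Among the genes named by the rule and the related genes, these crossed 0. Without the GC and length trend, Rpl30 was at 0.0312, Rpl34 at 0.00487, Rpl37 at 0.0155, Rps23 at 0.215, Rps12 at 0.0209 and Rps3a1 at 0.0466, and with the replicate block added Rpl30 at 0.0432, Rpl37 at 0.00905, Rps23 at 0.205, Rps12 at 0.0243 and Rps3a1 at 0.0439. With total counts Rps23 was at 0.108 and Rpl5 at 0.0110. Totals without Rn45s and Lars2 put Rps23 at 0.0438, and at 0.0354 with the block. With 1 library left out Rps23 ran from -0.230 to 0.0928, Rps18 from -0.190 to 0.140 and Rps27l from -0.0997 to 0.115, and Rps18 was at -0.000925 with TMM. None of the values that crossed 0 passed the test except Rps23 with the block and the trend removed (adjusted p = 0.0482). In that fit Rps18 was at 0.303 (adjusted p = 0.0109) and Rps27l at 0.275 (adjusted p = 0.00684). Precision is limited by 3 libraries a condition and, for the least abundant genes, by counts near 1 CPM.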
